A study of Mus musculus with 22 samples.

Results

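Transcript levels of 7 annexin genes (Anxa1 to Anxa7) and of 3 S100A genes whose proteins bind annexins (S100a6, S100a10 and S100a11) were followed across mouse livers. The 10 members were chosen by gene symbol among the 18716 rows of a liver RNA-seq table, and all 10 had a row and passed the filter on low values, as did 12537 rows in all. The table held 22 libraries of polyadenylated liver RNA in 3 groups, and every liver was labelled Fah-/-. Fah encodes the last enzyme of tyrosine breakdown, and animals without it accumulate toxic intermediates unless given the drug NTBC, which blocks an earlier step.

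The 7 D0 libraries (day 0) came from livers labelled as normal liver of Fah-/- mice. The 8 vehicle libraries came from Fah-/- mice that received cells named td-Hepatocytes and then vehicle for 28 days after NTBC was withdrawn. The 7 YC libraries came from mice with the same transplant and withdrawal, treated for 28 days with an agent named YC. The labels spell out neither name, give no age and do not say whether each library is its own animal. Every p-value therefore rests on library-to-library spread, part of which may be technical. Transplantation, withdrawal and 28 days separate both later groups from D0 together and cannot be told apart. These were whole livers holding host and transplanted cells in a proportion that the labels do not give, and a change in the number of cells of a type cannot be told apart from a change in RNA per cell.

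Annexins are cytosolic proteins that attach to negatively charged membrane lipids when calcium rises, and they act in vesicle traffic, membrane repair and the link between membrane and actin. S100A proteins are small calcium-binding dimers. S100a10 joins a pair of Anxa2 molecules into a complex that gathers plasminogen at the cell surface, S100a11 binds Anxa1, and S100a6 binds Anxa2 and Anxa11. In the resting liver, hepatocytes hold little Anxa1 and Anxa2, while bile duct, endothelial and immune cells hold more.

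Some libraries stood apart before any member was considered. Fah was 29.4 ± 6.09 RPKM (SD, n = 7) in D0, 404 ± 80.3 (n = 8) in vehicle and 185 ± 144 (n = 7) in YC, where it ran from 31.5 to 407. The libraries YC 6 and YC 7, at 41.3 and 31.5 RPKM of Fah, lay near the D0 range of 21.1 to 38.7. The Y-linked transcripts Ddx3y and Eif2s3y reached 0.5 RPKM in 0 of 7 D0, 8 of 8 vehicle and 3 of 7 YC libraries (YC 1 to 3), so their presence and the vehicle-to-D0 contrast cannot be told apart. The pancreatic transcript Prss2 was at 65.3 RPKM in vehicle 1 and 135 in YC 4, against at most 0.409 elsewhere. Values without some of these libraries are also given for the member counts, several group differences, the S100a10 per Anxa2 ratio and the relations to Fah.

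The 250 bases before the annotated transcription start are shown for S100a11, Anxa2 and S100a6, the genes with the largest vehicle-to-D0 differences among the 7 members with an entry in the RefSeq promoter set (build GRCm38.p6, the same sequence as mm10). Sequences run 5′ to 3′ on the gene's strand, and capitals mark matches, on either strand, to any of the motifs searched. The S100a11 sequence is chr3:93520246-93520495 (plus strand), that of Anxa2 is chr9:69453433-69453682 (plus strand), and that of S100a6 is chr3:90612644-90612893 (plus strand).
S100a11: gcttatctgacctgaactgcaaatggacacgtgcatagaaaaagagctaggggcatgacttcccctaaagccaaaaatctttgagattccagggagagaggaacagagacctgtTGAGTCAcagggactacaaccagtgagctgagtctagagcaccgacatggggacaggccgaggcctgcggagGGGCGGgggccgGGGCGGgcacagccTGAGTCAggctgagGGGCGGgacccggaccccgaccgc
Anxa2: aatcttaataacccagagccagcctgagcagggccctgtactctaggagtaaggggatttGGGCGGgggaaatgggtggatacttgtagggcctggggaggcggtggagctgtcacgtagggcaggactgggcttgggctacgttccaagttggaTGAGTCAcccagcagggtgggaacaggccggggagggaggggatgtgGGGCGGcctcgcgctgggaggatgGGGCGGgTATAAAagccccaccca
S100a6: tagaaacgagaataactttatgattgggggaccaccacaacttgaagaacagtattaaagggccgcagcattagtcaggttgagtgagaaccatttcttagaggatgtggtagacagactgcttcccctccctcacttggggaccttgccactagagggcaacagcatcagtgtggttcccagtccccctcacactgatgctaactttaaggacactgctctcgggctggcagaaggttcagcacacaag

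The motifs searched were AP-1 (TGANTCA), TEAD (GGAATG), the antioxidant response element core (TGACNNNGC), the Sp1 GC box (GGGCGG), the TATA box (TATAAA) and the CArG box. The S100a11 sequence held TGAGTCA at -136 and at -38, counted from the start site to the first base of the match, and 3 GC boxes. The Anxa2 sequence held TGAGTCA at -95, 3 GC boxes, and TATAAA at -17. No match was found in the S100a6 or Anxa5 sequence. Of 32851 promoter windows of the same length, 6.75% held an AP-1 match, 12.6% a TEAD match, 10.2% an antioxidant element, 32.7% a GC box, 12.4% a TATA box and 1.47% a CArG box. Anxa1 held a TEAD match and TATAAA, 1 Anxa4 window an antioxidant element core, and both Anxa7 windows GC boxes. A match describes letters only. S100a6 (chromosome 3, 90612894 to 90614414), S100a11 (chromosome 3, 93520496 to 93526288) and S100a10 (chromosome 3, 93555117 to 93564645) lie on the same chromosome, with S100a11 and S100a10 close together, while Anxa2 lies on chromosome 9 (69453683 to 69491792).

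Most members were higher in vehicle livers than in D0 livers, and S100a11 led them with a 7.25-fold difference. By limma on log2(RPKM + 0.5), at an adjusted p under 0.05, 8 of 10 members rose (Anxa1 to Anxa6, S100a6 and S100a11), Anxa7 fell and S100a10 did not pass. Over all genes tested, 28.2% rose and 29.9% fell by the same rule. After the libraries were rescaled by the median ratio to a common reference, 8 members again rose and 1 fell, beside 29.2% and 30.8% of all genes. The members' median log2 difference was 1.28, and that of all genes was 0.00. In 6 rising members and in Anxa7 the groups did not overlap, which held for 11.2% of all genes in the upward direction and 11.7% in the downward direction.

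YC livers were higher than vehicle livers in Anxa2, Anxa3, Anxa4, Anxa5, Anxa7, S100a6 and S100a11, so 7 of 10 members rose and 0 fell by limma (8 and 0 at an unadjusted p under 0.05). The background was lopsided, with 44.6% of all genes higher and 6.14% lower (5587 and 770 genes), and the median log2 difference was 0.67 for the members and 0.31 for all genes. With median-ratio scaling, that all-gene median became 0.01, the calls split into 2280 higher and 2098 lower (18.2% and 16.7%), and 4 members still passed, namely Anxa2, Anxa3, S100a6 and S100a11. The members' median was then 0.33. All 10 members overlapped between YC and vehicle, and non-overlap was seen in 6.52% of all genes upward and 0.558% downward.

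Against D0, 8 members rose in YC livers and 0 fell, with Anxa7 and S100a10 not passing limma (also 8 and 0 at an unadjusted p under 0.05). All genes gave 41.2% higher and 12.3% lower (5162 and 1537 genes), or 25.8% and 28.6% (3238 and 3587 genes) after median-ratio scaling, under which the members' counts were again 8 and 0. The median log2 difference was 1.58 for the members and 0.25 for all genes, and 1.25 and -0.05 after scaling. In 7 members (all the rising ones but Anxa1) every YC library exceeded every D0 library, against 19.4% of all genes upward and 4.17% downward. These comparisons share groups, so their counts are not independent of one another.

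**Figure D1:**
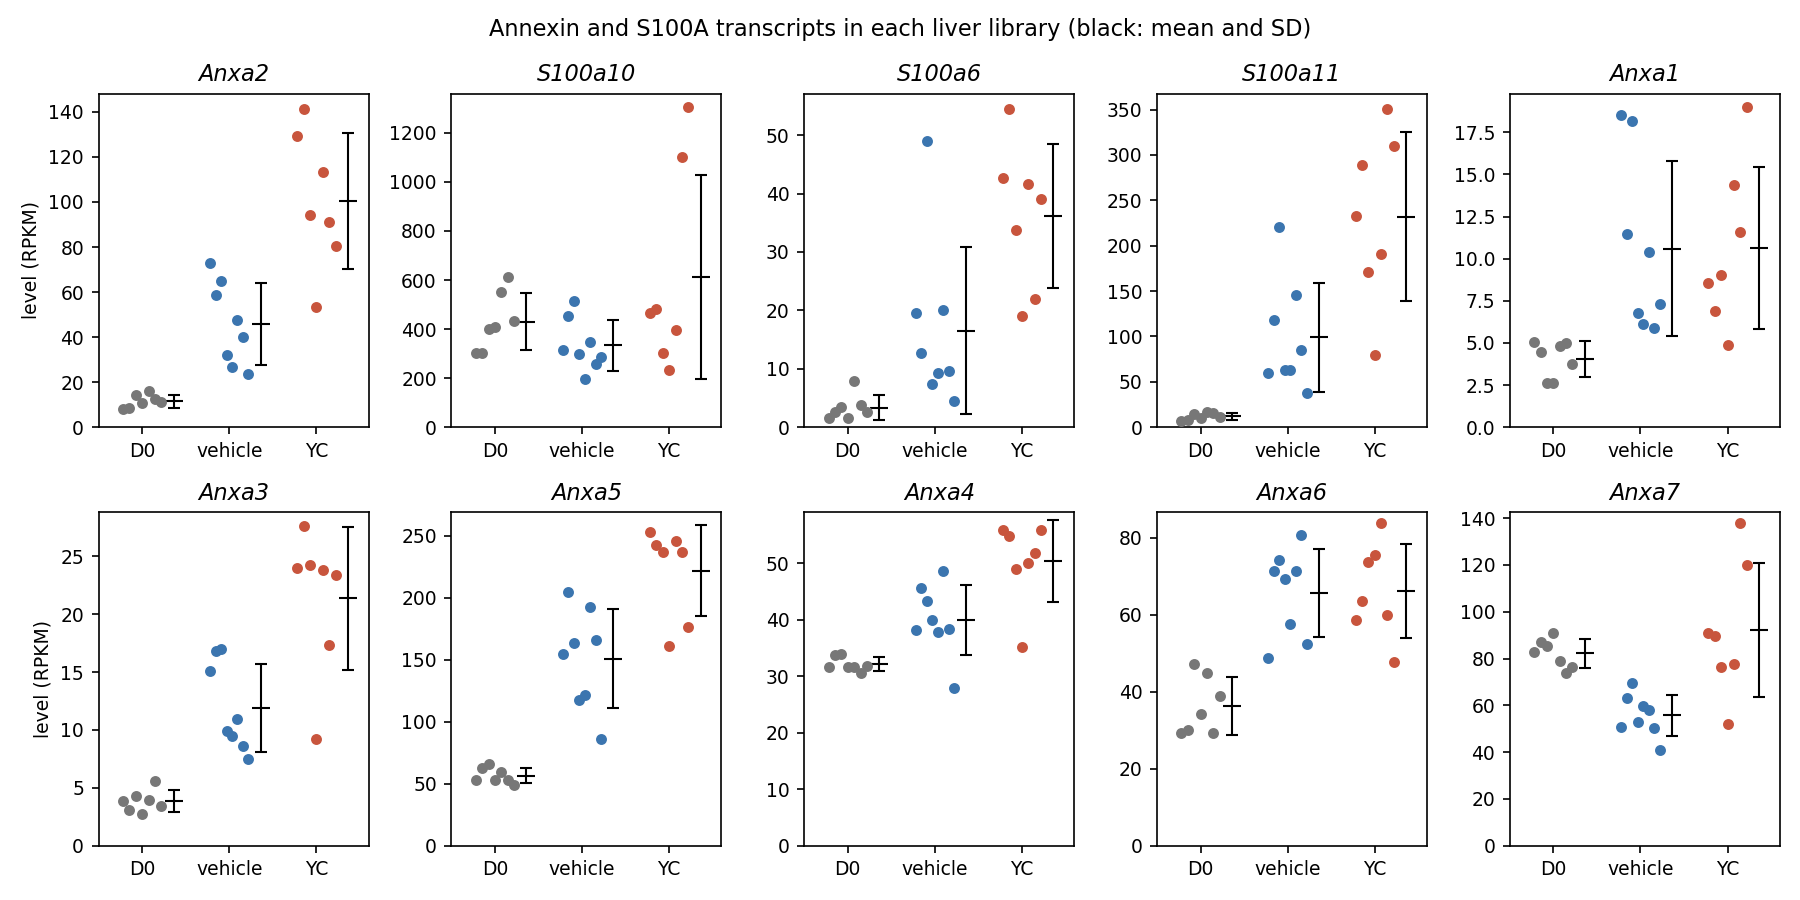
RPKM of each member (linear axes from 0) in every D0 (n = 7), vehicle (n = 8) and YC (n = 7) library, 1 point per library with the group mean and SD in black. The means of S100a11 and Anxa2 climb from D0 to vehicle to YC, S100a10 is at 196 RPKM or more everywhere, and Anxa7 is lowest in vehicle livers.

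Anxa2, the annexin that carries plasminogen-binding activity with S100a10, ran from 8.02 through a median of 11.02 to 15.99 RPKM in D0. It ran from 23.7 through 43.7 to 72.7 in vehicle and from 53.3 through 94.1 to 141 in YC. The D0 libraries all lay below the vehicle libraries, and 6 of 7 YC libraries lay above the highest vehicle library, the exception being YC 4. By limma the log2 difference was 1.87 ± 0.24 (SE) for vehicle minus D0 (adjusted p = 7.33e-07). For YC minus vehicle it was 1.17 ± 0.24 by limma (adjusted p = 0.000309), a 2.25-fold difference that became 0.82 on the log2 scale after median-ratio scaling (adjusted p = 0.00346). YC exceeded D0 8.22-fold.

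S100a10, the partner of Anxa2, was the most abundant member in every group and every library. Its level ran from 301 through a median of 410.0 to 611 RPKM in D0, from 196 through 307 to 513 in vehicle, and from 233 through 465 to 1305 in YC. The groups overlapped in all 3 comparisons, but YC 6 and YC 7, at 1103 and 1305, lay above every other library, while YC 1 to 5 had a mean of 375 ± 106 (SD, n = 5). None of the limma differences passed, with -0.38 ± 0.30 for vehicle minus D0 (adjusted p = 0.279), 0.67 ± 0.30 for YC minus vehicle (adjusted p = 0.0632) and 0.29 ± 0.31 for YC minus D0 (adjusted p = 0.442). The YC minus vehicle interval of 0.06 to 1.29 (95%, before adjustment) leaves room for a difference of more than 2-fold. Without YC 6 and YC 7 that difference was 0.18. It was 0.86 and passed (limma adjusted p = 0.0187) without vehicle 1 and YC 4, and it also passed with vehicle 3 (0.77), YC 3 (0.80) or YC 4 (0.86) alone left out. With every library in place it passed on quantile-normalized values (0.81, limma adjusted p = 0.0207) and with equal library totals (0.78, adjusted p = 0.0181). The YC minus D0 difference turned to -0.20 without YC 6 and YC 7 and to -0.05 after median-ratio scaling.

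S100a11, the partner of Anxa1, differed most from D0 of all members, in both vehicle and YC. It ran from 7.28 through a median of 10.9 to 16.6 RPKM in D0, from 37.3 through 73.9 to 221 in vehicle and from 79.2 through 232 to 351 in YC. No vehicle or YC library reached down to the D0 range, and 4 of 7 YC libraries lay above the highest vehicle library. Limma gave 2.86 ± 0.33 for vehicle minus D0 (adjusted p = 2.45e-07). YC exceeded vehicle 2.46-fold by limma (SE 0.33 on the log2 scale, adjusted p = 0.00240). The log2 difference was 0.95 after median-ratio scaling and 1.04 without YC 6 and YC 7. Over the whole course from D0 to YC the difference was 17.9-fold.

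Anxa1, a glucocorticoid-inducible protein that signals through formyl peptide receptors, did not follow S100a11 from vehicle to YC. It ran from 2.63 through a median of 4.48 to 5.03 RPKM in D0, from 5.91 through 8.87 to 18.5 in vehicle and from 4.87 through 9.03 to 19.0 in YC. All vehicle libraries exceeded all D0 libraries, whereas vehicle and YC spanned much the same range. Vehicle exceeded D0 by 1.19 ± 0.27 on the log2 scale (limma adjusted p = 0.000588). The YC minus vehicle difference was 0.02 ± 0.27 (limma adjusted p = 0.959), with a 95% interval from -0.53 to 0.57, and its sign turned with the scaling (-0.31 after median-ratio scaling).

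S100a6, also called calcyclin, which is found in dividing and matrix-producing cells, was the least abundant member in D0. Its values ran from 1.495 through a median of 2.65 to 7.97 RPKM in D0, from 4.49 through 11.2 to 49.1 in vehicle and from 19.1 through 39.1 to 54.5 in YC. Vehicle overlapped both other groups, with 6 of 8 vehicle libraries above all D0 libraries and only 1 YC library above the highest vehicle library, vehicle 3. The limma difference was 1.96 ± 0.38 for vehicle minus D0 (adjusted p = 0.000130) and 1.37 ± 0.38 for YC minus vehicle (adjusted p = 0.00446). After median-ratio scaling the latter was 1.03 (limma adjusted p = 0.0261). YC livers exceeded D0 livers 10.1-fold.

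Anxa5, which binds phosphatidylserine exposed on dying cells, was the most abundant annexin in both day 28 groups. It ran from 48.8 through a median of 53.2 to 65.7 RPKM in D0, from 86.4 through 159 to 205 in vehicle and from 161 through 237 to 253 in YC. D0 stood below both later groups without overlap, and 5 of 7 YC libraries lay above the highest vehicle library. Limma gave 1.37 ± 0.16 for vehicle minus D0 (adjusted p = 2.87e-07). The YC minus vehicle difference of 0.59 ± 0.16 passed limma as deposited (adjusted p = 0.00427) but not after median-ratio scaling (0.24, adjusted p = 0.214).

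Anxa3, a small annexin, had the same order at a lower level. Its range was 2.72 to 5.63 RPKM in D0 (median 3.83), 7.52 to 17.0 in vehicle (median 10.4) and 9.22 to 27.6 in YC (median 23.8). Every YC library except YC 4 exceeded every vehicle library, and D0 overlapped neither. Vehicle exceeded D0 by 1.49 ± 0.21 (limma adjusted p = 3.10e-06), and YC exceeded vehicle by 0.80 ± 0.21 (limma adjusted p = 0.00289). The latter was 0.47 after median-ratio scaling (limma adjusted p = 0.0493), where the exact permutation test no longer passed (adjusted p = 0.0664).

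Anxa4, an annexin of epithelial apical membranes, moved least among the rising members. It ran from 30.5 through a median of 31.6 to 33.9 RPKM in D0, from 28.0 through 39.1 to 48.6 in vehicle and from 35.1 through 51.8 to 55.9 in YC. Vehicle 8 fell below every D0 library, and YC 4 was the only YC library within the vehicle range. Vehicle exceeded D0 by 0.30 ± 0.12 (limma adjusted p = 0.0309), a call that was lost without D0 6, vehicle 2, vehicle 3 or vehicle 6 (0.26 to 0.29) and with equal library totals (0.20, adjusted p = 0.120). The YC minus vehicle difference of 0.33 ± 0.12 (limma adjusted p = 0.0207) turned to -0.02 after median-ratio scaling and did not pass without YC 6 and YC 7 (0.29, adjusted p = 0.0593). It also did not pass with the replicate number as a block (0.26, limma adjusted p = 0.0641), on quantile-normalized values (0.16, adjusted p = 0.204) or in a fit of the 2 groups alone (0.33, adjusted p = 0.0572).

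Anxa6, a large annexin of endosomes and cholesterol traffic, rose from D0 and did not separate YC from vehicle. Its range was 29.3 to 47.1 RPKM in D0 (median 34.3), 48.8 to 80.8 in vehicle (median 70.2) and 47.7 to 83.9 in YC (median 63.5). Both day 28 groups lay above D0 without overlap and covered the same range. Vehicle exceeded D0 by 0.85 ± 0.15 (limma adjusted p = 3.19e-05). YC minus vehicle was 0.01 ± 0.15 (limma adjusted p = 0.968, 95% interval -0.29 to 0.31) and turned to -0.34 after median-ratio scaling.

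Anxa7, also called synexin, which promotes the fusion of secretory granules, was the single member that fell from D0 to vehicle. It ran from 74.0 through a median of 82.9 to 91.1 RPKM in D0, from 40.9 through 55.6 to 69.7 in vehicle and from 52.0 through 89.8 to 138 in YC. All vehicle libraries lay below all D0 libraries, and 6 of 7 YC libraries lay above all vehicle libraries. Limma gave -0.57 ± 0.16 for vehicle minus D0 (adjusted p = 0.00349) and 0.68 ± 0.16 for YC minus vehicle (adjusted p = 0.00120). The latter was 0.33 after median-ratio scaling and did not pass (limma adjusted p = 0.0961), and it was 0.46 without YC 6 and YC 7. YC minus D0 was 0.10 ± 0.16 (limma adjusted p = 0.611) and -0.24 after median-ratio scaling.

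**Figure D2:**
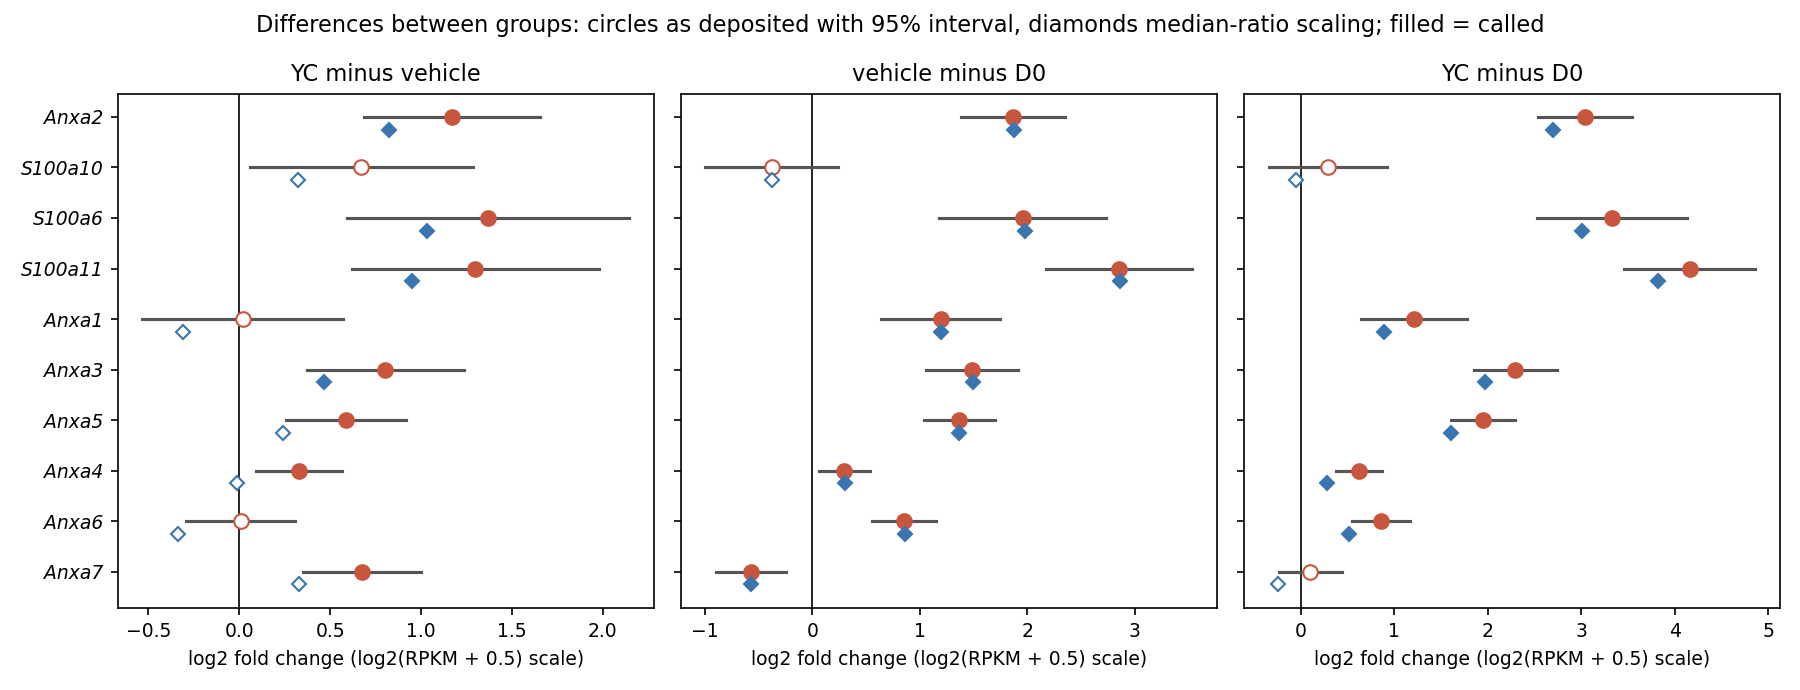
Log2 difference of each member from limma in the 3 comparisons, as deposited (circles, with the 95% interval) and after median-ratio scaling (diamonds), filled where called at an adjusted p under 0.05. Vehicle minus D0 barely moves with the scaling, whereas the YC differences shift down with it, turning Anxa1, Anxa4 and Anxa6 below 0 for YC minus vehicle and Anxa7 and S100a10 below 0 for YC minus D0.

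Exact permutation tests (two-sided) of mean log2 values, adjusted over the 30 tests, passed 7 members for YC minus vehicle, 9 for vehicle minus D0 and 8 for YC minus D0, with the same counts in each direction as limma. With only YC 1 to 3 kept among YC livers, the libraries that share Y-linked transcripts with vehicle, 7 members again rose from vehicle by limma and 0 fell. Anxa2 then differed by 1.49, S100a6 by 1.69 and S100a11 by 1.39. Without YC 6 and YC 7 the count was 6 and 0, and without vehicle 1 and YC 4 it was 8 and 0. YC 4 was the lowest YC library for 9 of 10 members and vehicle 8 the lowest vehicle library for 7, while vehicle 3 was the highest for 5.

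The order of the levels changed between groups. In D0, S100a10 at a mean of 430.0 RPKM stood above Anxa7 (82.3), Anxa5 (56.4), Anxa6 (36.2) and Anxa4 (32.1), with S100a11 (11.9) and Anxa2 (11.6) next, and Anxa1 (4.05), Anxa3 (3.84) and S100a6 (3.36) last. Neighbours in that order that did not separate library by library were Anxa6 and Anxa4 (4 of 7 libraries in that order), S100a11 and Anxa2 (3 of 7), Anxa1 and Anxa3 (4 of 7), and Anxa3 and S100a6 (6 of 7). In YC, S100a11 (mean 232 RPKM) and Anxa5 (222) followed S100a10 (612) and did not separate from each other (3 of 7). Anxa2 (100.5) and Anxa7 (92.1) were next, in that order in 5 of 7 libraries. In vehicle, Anxa2 (45.8) and Anxa4 (39.97) were in that order in 4 of 8 libraries, as were S100a6 (16.5) and Anxa3 (11.9).

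The balance between binding partners was read as a ratio of RPKM within each library, which does not depend on how libraries are scaled. These ratios and their tests were chosen after the values were seen. S100a10 per Anxa2 had a median of 37.8 in D0 (range 28.5 to 48.7), 7.56 in vehicle (4.34 to 12.04) and 3.59 in YC (3.22 to 16.2). D0 lay above both other groups without overlap, and YC 6 and YC 7, at 12.1 and 16.2, lay above all vehicle libraries. The mean log2 ratio differed by -2.30 for vehicle minus D0, with an adjusted p of 0.000932 by a two-sided exact permutation test over 6 tests. For YC minus D0 it was -2.80 (exact permutation test, adjusted p = 0.00117). YC minus vehicle was -0.51 and did not pass (exact permutation p = 0.196), but it passed without YC 6 and YC 7 (-1.07, adjusted p = 0.00233), without YC 7 alone (-0.78, adjusted p = 0.0286) and with YC 1 to 3 only (-1.15, adjusted p = 0.00833).

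S100a11 per Anxa1 moved the other way. Its median was 3.17 in D0 (range 1.45 to 5.51), 10.3 in vehicle (3.23 to 14.3) and 18.9 in YC (13.2 to 42.1). Only D0 and YC did not overlap. The mean log2 ratio differed by 1.62 for vehicle minus D0 (exact permutation test, adjusted p = 0.00261), by 2.91 for YC minus D0 (adjusted p = 0.00117) and by 1.29 for YC minus vehicle (adjusted p = 0.00140). A ratio shows unequal change of the transcripts and says nothing of the amounts of protein.

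**Figure D3:**
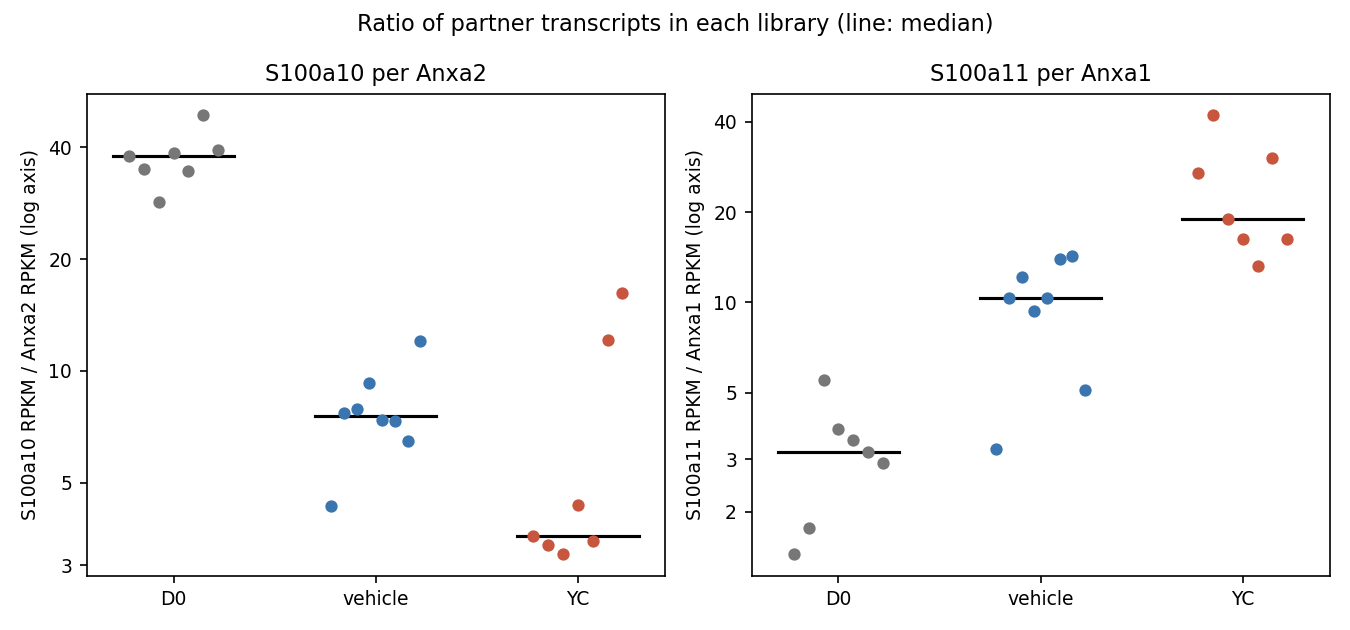
RPKM ratio of S100a10 to Anxa2 and of S100a11 to Anxa1 (log axes) in each library, 1 point per library with a line at the group median. S100a10 per Anxa2 is lower in vehicle and YC than in D0, with YC 6 and YC 7 at 12.1 and 16.2, and S100a11 per Anxa1 is higher from group to group.

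Within groups, partner transcripts were compared across libraries over 9 relations, none of which passed after adjustment (smallest adjusted p = 0.0554, exact permutation tests). Anxa2 and S100a6 had r = 0.82 in D0 (n = 7), 0.82 in vehicle (n = 8) and 0.83 in YC (n = 7), each with an exact permutation adjusted p of 0.0554, and rho = 0.86, 0.86 and 0.89. Without the 2 libraries farthest from the group's median Anxa2, r was 0.51, 0.77 and 0.46. Anxa2 and S100a10 had r = 0.81, 0.72 and 0.14, and rho = 0.68, 0.74 and 0.11. Among YC libraries other than YC 6 and YC 7, both ran in 1 order, down from YC 2 through YC 1, YC 5 and YC 3 to YC 4. The low YC value thus depended on YC 6 and YC 7, and no r was computed without them. For Anxa1 and S100a11 r was -0.07, 0.51 and 0.63, and rho was -0.04, 0.19 and 0.50. No values are given within libraries that hold or lack Y-linked transcripts, since D0 and vehicle are each of 1 kind and YC splits into 3 and 4 libraries. Without the 2 libraries farthest from the group's median of the annexin, r was 0.64, 0.94 and -0.62 for Anxa2 with S100a10 and 0.12, 0.65 and -0.18 for Anxa1 with S100a11, so both YC values changed sign. For Anxa2 in YC this left out YC 2 and YC 4 and kept YC 6 and YC 7, so the -0.62 still rests on those libraries.

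Fah, which the genotype label names, differed widely among YC livers, and 4 of 10 members passed an exact permutation test of their correlation with it. Of all 12536 other genes tested, 43.3% had an unadjusted exact permutation p under 0.05 for the same correlation, as 4 of the 10 members did, so the members' share is that of the background. Over the 7 YC livers, S100a10, Anxa7 and S100a11 were lower where Fah was higher, and Anxa6 was higher. S100a10 was 1305 and 1103 RPKM in YC 7 and YC 6, the livers lowest in Fah, and 233 in YC 4, the liver highest in Fah. Its correlation with Fah was r = -0.97 and rho = -0.93 (n = 7, exact permutation adjusted p = 0.00595 and 0.0225 over 10 relations). Anxa7 had r = -0.93 and rho = -0.93 (exact permutation adjusted p = 0.00595 and 0.0225), with 138 and 120.2 RPKM in YC 6 and YC 7 against 52.0 in YC 4. S100a11 had r = -0.84 and rho = -0.89 (exact permutation adjusted p = 0.0238 and 0.0308). Anxa6 had r = 0.91 and rho = 0.93 (exact permutation adjusted p = 0.0152 and 0.0225), with 47.7 RPKM in YC 7 and 75.6 in YC 4.

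Leaving out YC 4 and YC 7, whose Fah lies farthest from the median, gave r = -0.94 for S100a10, -0.96 for Anxa7, -0.93 for S100a11 and 0.84 for Anxa6 over the 5 remaining livers. Anxa4 had r = -0.66 and rho = -0.86, of which only the rank correlation passed (exact permutation adjusted p = 0.125 and 0.0476). Without YC 6 and YC 7, the livers lowest in Fah, r was -0.88 for S100a10, -0.85 for Anxa7, -0.83 for S100a11 and 0.88 for Anxa6 over 5 livers. None of the 4 passed (exact permutation adjusted p = 0.125 to 0.139, unadjusted 0.0167 to 0.0833). The 5 livers allow few orders, so this test could hardly pass after adjustment and cannot decide whether the relations rest on YC 6 and YC 7. The other 5 members did not pass over the 7 livers, and Anxa2, whose protein partners S100a10, had r = -0.16 and rho = -0.04. Without YC 6 and YC 7, r was -0.82 for Anxa2, -0.77 for S100a6, -0.67 for Anxa5, -0.65 for Anxa3 and -0.07 for Anxa1. It was -0.82 for Anxa4, and none of these passed either (exact permutation adjusted p = 0.125 to 0.967). The value of Anxa2 over the 7 livers thus depended on YC 6 and YC 7. Libraries with and without Y-linked transcripts number 3 and 4 here, too few for a value within each. Some cell type marker sums, but not all, also stood apart from the YC median in YC 6 and YC 7. Each sum adds RPKM over its list, so the most abundant genes weigh most. In YC, Dcn alone averaged 214 RPKM among stellate markers, and Alb averaged 24644 among hepatocyte markers. Summed macrophage markers were at 989 and 887 RPKM (YC median 493.1) and endothelial markers at 203 and 210 (136). Stellate and matrix markers were at 321 and 580 (257) and neutrophil markers at 260 and 407 (221). Hepatocyte markers were low there, at 34556 and 32736 RPKM (45413), as were mesothelial markers, at 3.02 and 3.99 (11.3). Biliary markers split, at 147 in YC 6 and 338 in YC 7 (225), and lymphocyte markers were at 8.43 and 6.28 (6.73). The part of these cells in the Fah relations was not tested.

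**Figure D4:**
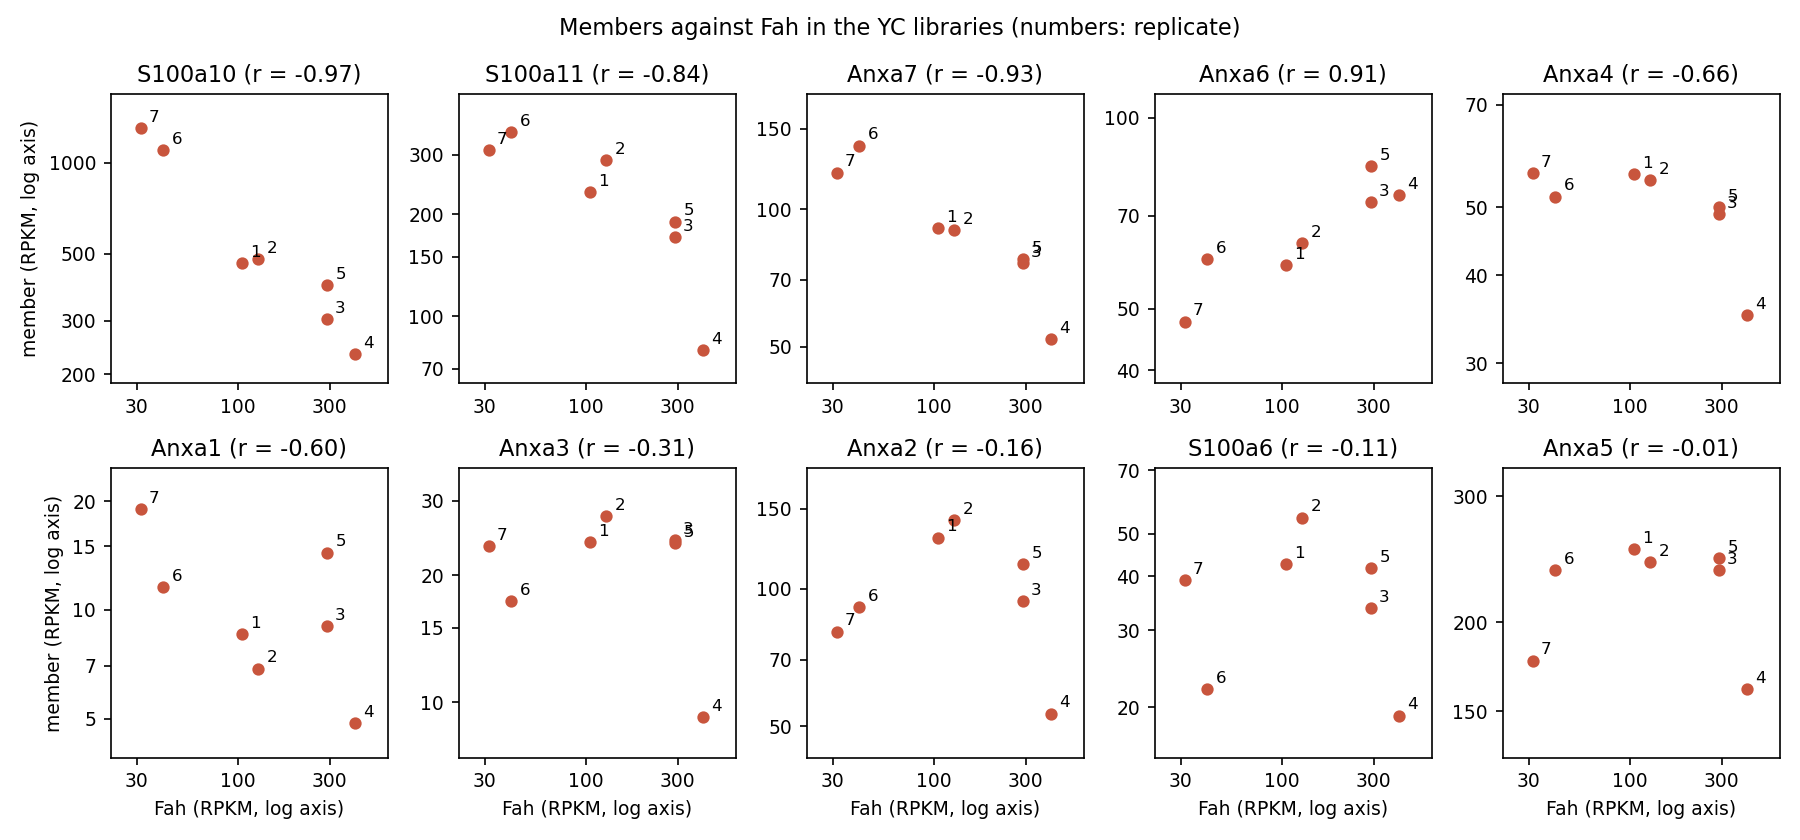
RPKM of each member against Fah RPKM in the 7 YC livers (log axes, 1 point per library with its replicate number, Pearson r of log2(RPKM + 0.5) in each panel title). S100a10, S100a11 and Anxa7 run down from YC 6 and YC 7 to YC 4, and Anxa6 runs up. Anxa2, S100a6 and Anxa5 show no order over all 7 livers, though without YC 6 and YC 7 their r is -0.82, -0.77 and -0.67.

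The genes whose pattern over all 22 libraries was most like Anxa2 were Fblim1 (r = 0.98), Cd63, Gdpd1, Afp, Epdr1 and Anxa3 (r = 0.97 each), and Anxa5 ranked 8 and S100a11 37 by the same measure. These values describe libraries that fall into 3 groups and share them. Fblim1 encodes an adaptor of focal adhesions, Cd63 a membrane protein of late endosomes, and Afp the fetal albumin homologue. Those most like S100a10 were Psma2 (r = 0.96), Cdc16 (0.95), Mtx2 (0.94), Cinp and Fam162a (0.93 each) and Arpp19 (0.93). Anxa7 was the member most like S100a10 (r = 0.75), and Anxa2 had r = 0.24 with it.

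Other annexin genes were few in these livers, with 3 of 5 passing the filter. Of the 3, Anxa11, the annexin that binds S100a6, was lowest in vehicle livers, as Anxa7 was. It fell from 7.20 ± 1.34 RPKM (SD, n = 7) in D0 to 4.00 ± 0.962 (n = 8) in vehicle and was 8.12 ± 1.99 (n = 7) in YC. YC minus vehicle was 0.93 ± 0.16 by limma (adjusted p = 8.58e-05), and vehicle minus D0 was -0.78 ± 0.16 (adjusted p = 0.000283). Anxa13, an annexin of intestinal and ductal epithelium, was 5.13 RPKM in D0, 9.05 in vehicle and 9.70 in YC, and its differences did not pass limma. The counts for these 3 were 1 higher and 0 lower in YC against vehicle, beside 44.6% and 6.14% of all genes. In vehicle against D0 they were 1 higher and 1 lower, beside 28.2% and 29.9%.

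Of 13 other S100 genes, 8 passed the filter. By limma 7 of these rose from D0 to vehicle and 0 fell (8 and 0 at an unadjusted p under 0.05), beside 28.2% and 29.9% of all genes. From vehicle to YC 2 rose and 4 fell, both as deposited and after median-ratio scaling. All genes gave 44.6% higher and 6.14% lower there, and 18.2% and 16.7% after scaling. The median log2 difference of these 8 genes for YC minus vehicle was 0.06, against 0.31 for all genes. S100a1, a regulator of calcium release, went from 155 ± 24.7 RPKM (SD, n = 7) in D0 to 235 ± 58.4 (n = 8) in vehicle and 92.3 ± 18.7 (n = 7) in YC, with a YC minus vehicle difference of -1.32 ± 0.17 (limma adjusted p = 2.66e-06). S100a13, which takes part in the release of fibroblast growth factor from cells, fell by 0.90 on the log2 scale in the same comparison (limma adjusted p = 0.000486). S100z was listed at 0 in every D0 library and at 0 to 0.566 RPKM in vehicle, and it reached 0.688 to 3.28 in YC. The difference from vehicle was 1.91 ± 0.19 on the log2(RPKM + 0.5) scale (limma adjusted p = 3.36e-07). S100z passed the filter only through its YC libraries, so this p-value and its place among the 2 risers are not independent support. S100a9, a neutrophil protein, averaged 7.83 RPKM in D0, 37.2 in vehicle and 78.2 in YC, of which the last step did not pass (limma adjusted p = 0.197).

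Among 18 tested genes for ligands, receptors and other partners of these proteins, 9 rose from vehicle to YC and 0 fell by limma, and 5 rose and 1 fell after median-ratio scaling. All genes gave 44.6% higher and 6.14% lower, and 18.2% and 16.7% after scaling, so the share that rose as deposited was near that background. Their median log2 difference was 0.46, against 0.31 for all genes. Plaur belongs to the plasminogen system that the complex of Anxa2 and S100a10 serves. Plaur, the receptor of urokinase, had medians of 0.751 RPKM in D0, 3.47 in vehicle and 20.5 in YC, a YC minus vehicle difference of 2.47 ± 0.30 (limma adjusted p = 1.94e-06). Plg, plasminogen itself, averaged 502 RPKM in D0, 524 in vehicle and 489 in YC and passed limma in none of the comparisons. Ahnak2, a relative of the scaffold Ahnak that Anxa2 and S100a10 bind, averaged 0.058 RPKM in D0, 0.384 in vehicle and 2.00 in YC. It rose by 1.45 ± 0.19 from vehicle to YC (limma adjusted p = 4.01e-06). Ahnak2 passed the filter only through its YC libraries, so this p-value is not independent support. Ahnak itself did not pass in that comparison (limma adjusted p = 0.0625). From D0 to vehicle, 10 of the 18 rose and 2 fell, beside 28.2% and 29.9% of all genes. The risers include Ahnak2 and Plat, which lay below 0.5 RPKM in every D0 library. Both passed the filter only through day 28 libraries, so their place in that count is not independent support. At an unadjusted p under 0.05 in limma, 10 of the 18 rose and 0 fell from vehicle to YC.

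Of 14 tested genes for calcium-dependent membrane repair and fusion, 8 rose and 1 fell from vehicle to YC by limma, and 3 rose and 4 fell after median-ratio scaling, so that the balance of this list turned with the scaling. The median log2 difference was 0.49 as deposited and 0.19 after scaling. Beside the same all-gene shares, the risers after scaling were close to the background of 18.2%. From D0 to vehicle 9 rose and 1 fell, beside 28.2% and 29.9% of all genes. Myof lay below 0.5 RPKM in every D0 library and passed the filter only through day 28 libraries, so its place in that count is not independent support. Cpne1, a copine that binds membranes with calcium, fell from 13.9 RPKM in D0 to 5.93 in vehicle, and it was 10.3 in YC, 0.75 ± 0.12 above vehicle (limma adjusted p = 4.11e-05). Myof, a ferlin of membrane repair, averaged 0.353, 1.36 and 3.31 RPKM, with 1.00 ± 0.21 for YC minus vehicle (limma adjusted p = 0.000411). Cpne8 differed by 0.89 ± 0.22 (limma adjusted p = 0.00192). Vamp8, an endosomal fusion protein, was at 155, 224 and 207 RPKM, and its YC minus vehicle difference of -0.14 did not pass (limma adjusted p = 0.543).

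Cell type markers also differed between the groups. From D0 to vehicle, 10 of 10 macrophage and 9 of 10 neutrophil markers rose by limma. So did 7 of 10 stellate and matrix markers, of which 1 fell, and 5 of 7 tested biliary markers. Hepatocyte markers gave 2 higher and 2 lower of 10, and endothelial markers 4 and 1 of 8. Of 6 tested markers each, 4 lymphocyte and 3 mesothelial markers rose and 0 fell. All genes gave 28.2% higher and 29.9% lower. Summed macrophage markers were 129 to 247 RPKM in D0, 516 to 1453 in vehicle and 356 to 989 in YC. Summed neutrophil markers, which include S100a8 and S100a9, were 4.33 to 57.2 in D0, 44.9 to 167 in vehicle and 38.9 to 407 in YC. The macrophage sums of both day 28 groups lay above D0 without overlap, whereas the neutrophil sums overlapped. The stellate and matrix sum was 113 to 138 in D0, 148 to 399 in vehicle and 144 to 580 in YC, and the biliary sum was 32.9 to 58.1, 129.6 to 350 and 126 to 348. From vehicle to YC, 5 of 10 neutrophil, 2 of 10 macrophage, 3 of 10 stellate and 2 of 7 biliary markers rose. So did 1 of 6 mesothelial markers and 1 of 8 endothelial markers, and 2 endothelial markers fell. Over all genes 44.6% rose and 6.14% fell, so the neutrophil share that rose was near the background and the others were below it. Lymphocyte markers fell in 5 of 6 tested and rose in 0, and 4 of 10 hepatocyte markers fell and 0 rose by limma (5 and 0 for both lists at an unadjusted p under 0.05). After median-ratio scaling, 18.2% of all genes rose and 16.7% fell. The macrophage list then turned to 1 higher and 4 lower, the stellate list to 1 and 1 and the endothelial list to 0 and 4. The biliary and mesothelial lists had 0 and 0, the neutrophil list 3 and 0, and the lymphocyte and hepatocyte lists 0 and 5 each. The hepatocyte sum, by far the largest, was 52159 to 71323 RPKM in D0, 63659 to 97582 in vehicle and 32736 to 67435 in YC. No marker of these lists was at 0 in every library of a group, and their part in the members' differences was not tested.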

How the data were processed

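Polyadenylated RNA of 22 mouse livers (7 D0, 8 vehicle, 7 YC) was sequenced, and the authors deposited RPKM values, which divide reads by gene length and by library size, 1 column per library with none pooled. Per the submitters' processing notes, TopHat 1.4.1, Cufflinks 1.3.0 and the build mm10 were used. Not given in the sources used here are the tool that made the values, the annotation, filters, strand and the handling of reads shared with similar copies or overlapping genes. Of 18716 rows, 27 carried a date in place of a symbol and 2 names were repeated, none of them a member.

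Rows were kept where 7 or more libraries reached 0.5 RPKM (12537). Values were taken as log2(RPKM + 0.5), a scale that understates the change of low genes, and fitted with limma 3.58.1 (trend and robust, statmod 1.5.0, R 4.3.3) over all 22 libraries in 3 groups. P-values were adjusted by Benjamini-Hochberg over all rows tested and called under 0.05, and list members were read from that fit. Exact permutation tests, ratios, correlations and motif matches ran in Python 3.11.15 (scipy 1.17.1, numpy 2.4.6, pandas 2.3.3), and matplotlib 3.10.9 drew the figures. Promoter sequences and gene positions come from RefSeq on GRCm38.p6, with 9 windows for 7 members.

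Members, lists and tests were chosen with earlier results of these data known. The text names every member, Fah, the called genes of each wider list with the 3 smallest adjusted p in YC minus vehicle and the most abundant uncalled one, and the 6 genes most like Anxa2 and S100a10. One gene that this rule names is not reported here. Prss2 and the Y-linked genes were named after their values were seen. The alternatives were other scalings, pseudocounts and filters, array weights, fits of the 2 groups alone, the replicate number as a block, and libraries left out.

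Depth was estimated from the steps of low values, at 50800000 to 66000000 reads in D0, 51100000 to 71600000 in vehicle and 49900000 to 82900000 in YC. The search covered 45000000 to 90000000, a range chosen after seeing that wider searches returned multiples, so a depth outside it would not be seen. Only 36.6% to 43.9% of low values lay within 0.03 of a whole read (6% by chance), too few for a count test, and depth entered no test.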

Additional observations from a re-analysis of the deposited data

Results flagged for a closer look

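Each member was screened in each group for a library far from the rest, by the gap to its nearest neighbour against the group's whole range on the log2 scale. Of 30 groups tested, 3 held such a library, and chance gives about 1 in 20. Anxa3 was lowest in YC 4, at 9.22 RPKM. Anxa4 was lowest in YC 4, at 35.1 RPKM, and in vehicle 8, at 28.0 RPKM. YC 4 also held the pancreatic transcript Prss2 at 135 RPKM and the highest Fah of the YC livers, 407 RPKM.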

How the results depend on the processing

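Over 35 alternatives, direction and side of the threshold held in all for 9 of 10 members in vehicle minus D0, 8 in YC minus D0 and 4 in YC minus vehicle. The 3 exclusions of several libraries were chosen after seeing the data. With median-ratio scaling 4 members were higher in YC than vehicle rather than 7. A mean of at least 5 RPKM, which tests fewer genes, left 3816 calls for YC minus vehicle (6357 as reported), 4061 for vehicle minus D0 (7278) and 3560 for YC minus D0 (6699).

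Leaving out each library in turn gave 7 to 8, 7 to 8 and 8 to 8 members higher, 0 to 0, 1 to 1 and 0 to 0 lower, and 5609 to 6967, 6850 to 7701 and 6254 to 7040 calls over all genes, in that order of comparisons. Numbered replicates were not paired, since same-numbered libraries correlated above 0.1 in 2, 2 and 1 of 7 numbers for the same comparisons. With the replicate block, members higher were 6, 8 and 8, members lower 0, 1 and 0, and all calls 6002, 7129 and 6486.

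Differences near 0 changed sign, and the cause was not tested. Anxa1 in YC minus vehicle was -0.31 with median-ratio scaling, -0.37 on quantile-normalized values, -0.032 with array weights, -0.034 with the block, -0.21 without YC 6 and YC 7 and -0.24 with YC 1 to 3 only. With single libraries left out it ran from -0.14 to 0.17, below 0 without vehicle 4, 5, 7 or 8 or YC 5, 6 or 7. Anxa6 was -0.34, -0.097, -0.035 and -0.036 in the first 4 of these settings and -0.085 without vehicle 1 and YC 4, and with single libraries left out it ran from -0.053 to 0.082, below 0 without vehicle 1, 5 or 8 or YC 3, 4 or 5. Anxa4 was -0.015 with median-ratio scaling. In YC minus D0, Anxa7 was -0.24 with median-ratio scaling, -0.079 on quantile-normalized values, -0.11 without YC 6 and YC 7, and -0.0024 to 0.23 with single libraries left out, below 0 without YC 6. S100a10 was -0.054 with median-ratio scaling, -0.012 with array weights, -0.20 without YC 6 and YC 7 and -0.032 with YC 1 to 3 only. With median-ratio scaling, r in YC was -0.070 for Anxa2 with S100a10 and 0.22 for Fah with Anxa5.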
